A study of Arabidopsis thaliana with 12 samples.

Results

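Transcripts of 2 Arabidopsis thaliana genes tied by family to stress responses, AT3G04210 and AT1G44830, are described here across all 12 arrays of the series. Both were chosen because their probes were lower in plants treated with DCMU and because the platform annotation names no other gene for either probe. AT3G04210 lies on chromosome 3 and is read by probe 1051, and AT1G44830 lies on chromosome 1 and is read by probe 1333; each has 1 probe. They are 2 of the 651 features that carry a single gene name, out of 3278 features measured. All plants were wild type of ecotype C24, and total RNA was hybridised. The 6 untreated samples came from plants raised under PSII-specific light, that is light that mainly excites photosystem II, and the 6 treated samples from plants that had the same light and also received DCMU. DCMU, also called diuron, is a weedkiller that stops electrons from leaving photosystem II for plastoquinone. Plant age, tissue, DCMU dose and length of treatment are not stated in the labels.

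As background, AT3G04210 belongs to the TIR-NBS family, proteins with a Toll/interleukin-1 receptor domain and a nucleotide-binding site. Related plant immune receptors also carry leucine-rich repeats, recognise pathogen molecules and trigger defence, and TIR domains of such receptors signal by cleaving NAD+. AT1G44830 belongs to the ERF family of transcription factors, which bind DNA through an AP2 domain; members of the family act in responses to ethylene, pathogens, cold and drought. Light that drives photosystem II reduces the plastoquinone pool and DCMU leaves it oxidised, and the redox state of the pool is known to influence the expression of photosynthesis genes. Neither family role was measured here, and probe sequences were not used, so each probe was tied to its locus by the platform annotation alone. The family names were taken as given when the genes were chosen, since the gene table used lists both by locus alone.

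AT3G04210 was lower on every treated array than on any untreated one. In untreated plants its scaled spot intensity, in the authors' units, had a lowest value of 2.31, a median of 2.45 and a highest value of 2.72 over 6 arrays. In DCMU-treated plants the lowest value was 1.003, the median 1.06 and the highest 1.23. The groups did not overlap, and the gap between them was wider than the range of either group. After samples of numbers 1-2, 3-4 and 5-6 were averaged to 3 replicates, the level was 2.49 ± 0.158 (SD, n = 3) without and 1.09 ± 0.0951 (SD, n = 3) with DCMU. The log2 change was -1.19 (SE 0.11, 95% interval -1.44 to -0.95), a 2.28-fold fall with an interval of 1.93-fold to 2.71-fold.

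AT1G44830 showed a smaller difference in the same direction. Its untreated intensity had a lowest value of 1.698, a median of 1.82 and a highest value of 1.92 over 6 arrays. With DCMU the lowest value was 1.13, the median 1.31 and the highest 1.53. The groups again did not overlap, but the highest treated array, number 3, came close to the lowest untreated array, number 4. Averaged to 3 replicates, the level was 1.82 ± 0.0467 (SD, n = 3) without and 1.33 ± 0.166 (SD, n = 3) with DCMU. The log2 change was -0.46 (SE 0.12, 95% interval -0.72 to -0.21), a 1.38-fold fall with an interval of 1.15-fold to 1.65-fold. Levels of different probes are not comparable with each other, so only changes are compared between the genes.

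**Figure D1:**
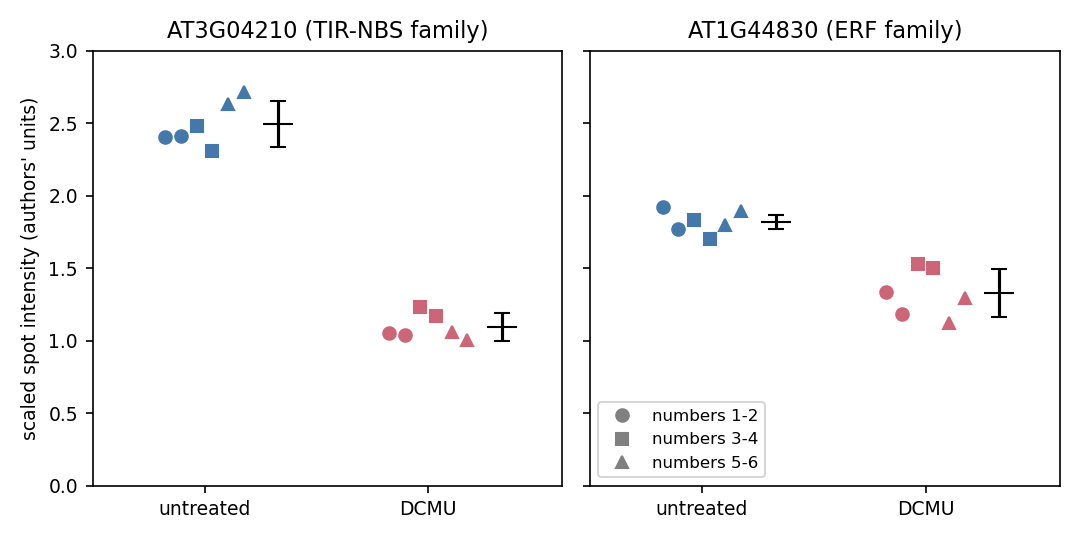
Scaled spot intensity of AT3G04210 and AT1G44830 on the 12 arrays, 6 untreated (blue) and 6 with DCMU (red), with marker shape giving the number pair and black bars giving the mean ± SD of 3 replicates. AT3G04210 fell from 2.31 to 2.72 down to 1.003 to 1.23, and AT1G44830 from 1.698 to 1.92 down to 1.13 to 1.53; the intensities of the 2 probes cannot be set against each other.

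These changes are what chose the genes, so they are given as a description and their p-values support nothing further. In the limma fit over 3278 features (Benjamini-Hochberg) the adjusted p was 0.000261 for AT3G04210 and 0.0478 for AT1G44830, with 104 features (3.17%) lower and passing the threshold of 0.05 and 804 features at an unadjusted p under 0.05 in either direction. All 6 treated arrays lay below all 6 untreated arrays in 184 features (5.61%). With DCMU the median over all features moved by 0.10 (log2), so relative to it AT3G04210 was at -1.29 and AT1G44830 at -0.56. Both probes were among the brightest eighth of features, where 11.0% of features were called lower. Fewer cells that express a gene and less RNA per cell cannot be told apart in these bulk samples.

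Both genes were lower in each number pair, as were 16.5% of all features, and in both the fall was smallest in numbers 3-4 and largest in numbers 5-6. For AT3G04210 the replicate level went from 2.41 to 1.04 in numbers 1-2, from 2.395 to 1.203 in numbers 3-4 and from 2.68 to 1.03 in numbers 5-6. These are falls of 2.31-fold, 1.99-fold and 2.59-fold. For AT1G44830 it went from 1.84 to 1.26 in numbers 1-2, from 1.76 to 1.52 in numbers 3-4 and from 1.85 to 1.21 in numbers 5-6. Its falls were 1.47-fold, 1.16-fold and 1.53-fold, so that in numbers 3-4 the change of -0.22 on the log2 scale was inside the range that holds the middle 90% of features, which began at -0.51. A total of 17.6% of features were lower still than AT1G44830 in that pair, against 3.57% in numbers 1-2 and 2.90% in numbers 5-6. For AT3G04210 the share was 0.519%, 1.01% and 0.458% in numbers 1-2, 3-4 and 5-6. Set number against number, AT3G04210 was lower in 6 of 6, by 1.97-fold to 2.71-fold, and AT1G44830 in 6 of 6, by 1.13-fold to 1.598-fold.

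In numbers 3-4 the treated replicate was the highest of its group and the untreated replicate the lowest of its group, for both genes. The treated replicate of numbers 3-4 stood 0.14 above its group mean on the log2 scale for AT3G04210 and 0.20 above it for AT1G44830, while the untreated replicate stood at -0.06 and -0.04 from its own. The median feature deviated the other way, by -0.03 in those treated arrays and by 0.02 in those untreated arrays. The order with the smallest fall in numbers 3-4 and the largest in numbers 5-6 held for 30 of the 104 features called lower (28.8%) and for 298 of all 3278 (9.09%). It is therefore not particular to these genes.

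**Figure D2:**
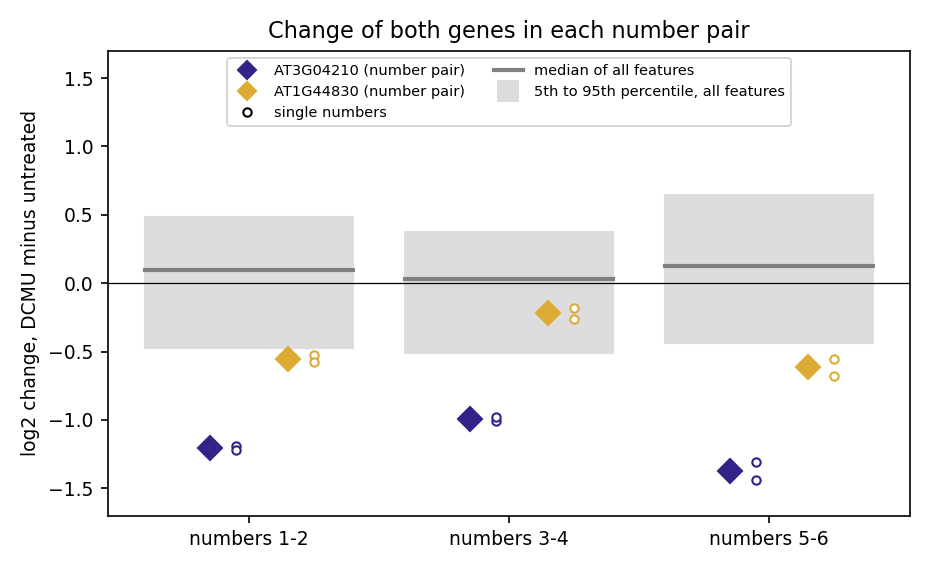
Log2 change, DCMU minus untreated, of AT3G04210 (dark blue) and AT1G44830 (yellow) in each number pair (diamonds) and each single number (open circles), over the median and the 5th to 95th percentile of all 3278 features (grey). AT3G04210 lies below the grey range in all 3 pairs, and AT1G44830 lies inside it in numbers 3-4.

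The difference between the 2 falls varied less than either fall. The log2 change of AT3G04210 minus that of AT1G44830 was -0.65 in numbers 1-2, -0.77 in numbers 3-4 and -0.76 in numbers 5-6. The mean difference was -0.73 ± 0.0656 (SD, n = 3), so the fold fall of AT3G04210 was 1.66 times that of AT1G44830. The change itself had an SD over the pairs of 0.19 for AT3G04210 and 0.21 for AT1G44830. The difference was not tested, because both genes were chosen on this contrast. Its spread was not set beside that of other pairs of genes, so it is not shown to be particular to these.

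The spread around the group means did not set the genes apart as much as the size of the fall did. The SE of the log2 change was 0.11 for AT3G04210 and 0.12 for AT1G44830, so the first change was 10.8 times and the second 3.999 times its SE. Within groups the log2 SD between replicates was 0.11 and 0.13, and 26.8% and 39.5% of all features had a smaller one. Over the 3 replicates AT1G44830 had a coefficient of variation of 2.57% without and 12.5% with DCMU, and AT3G04210 of 6.33% and 8.70%. Among treated replicates of AT1G44830, numbers 3-4 stood at 1.52, against 1.26 in numbers 1-2 and 1.21 in numbers 5-6. Whether the spread differs between the groups was not tested. Arrays of the same number pair differed on average by 0.06 on the log2 scale for AT3G04210, a smaller gap than in most features (9.52% had a smaller one), and by 0.12 for AT1G44830 (67.7%), with a median of 0.10 over all features.

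Among the 14 named features called lower (2.15% of those with a name), AT3G04210 had the third largest fall and AT1G44830 the smallest. Over all 104 features called lower, AT3G04210 ranked 15 by size and AT1G44830 ranked 102. AT1G44830 was also the named feature just inside the threshold. The named feature with a fall just outside it was AT1G21500, which changed from 0.515 to 0.388, or by -0.41 on the log2 scale (limma, adjusted p = 0.0574). In either direction the nearest one outside was AT3G13150, with a log2 change of 0.75 (limma, adjusted p = 0.0507). In all 14 called falls, the 2 genes included, the 6 treated arrays lay below the 6 untreated ones. The falls were called on these same arrays, so this adds no support. Of all features, 5.61% showed it.

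**Figure D3:**
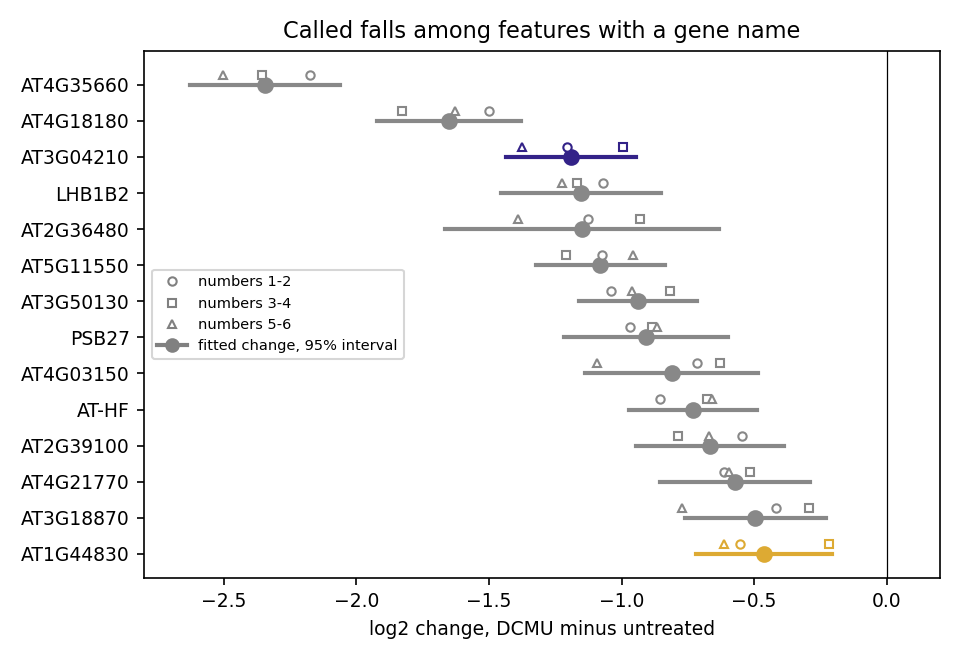
Log2 change with 95% interval (filled circle and bar) and the change in each number pair (open markers) for the 14 named features called lower with DCMU. AT3G04210 (dark blue, -1.19) is the third largest fall and AT1G44830 (yellow, -0.46) the smallest.

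The fall of AT3G04210 passed the test in 15 of 15 alternative settings that kept all replicates and in 6 of 6 fits that left out 1 replicate, where it was between 2.203-fold and 2.398-fold and limma's adjusted p at most 0.00328. Those 15 settings include the same fit read at a false discovery rate of 0.1, which neither gene could fail. They also include a fit of the 12 samples as separate replicates, which ignores the number pairs. AT1G44830 passed in 12 of 15 and in 2 of 6, with limma's adjusted p up to 0.170 without untreated numbers 1-2. It was lost without numbers 1-2 or 5-6 of either group and was kept without untreated numbers 3-4 (adjusted p = 0.0491) or treated numbers 3-4 (adjusted p = 0.0239). The size moved less than the call: without 1 replicate AT1G44830 fell 1.32-fold to 1.48-fold. With the number pair as a block, limma's adjusted p was 6.07e-06 for AT3G04210 and 0.0110 for AT1G44830, where 6.56% of features were called lower. The SE moved little, from 0.110 to 0.105 for AT3G04210 and from 0.115 to 0.107 for AT1G44830. In numbers 3-4 and 5-6 the untreated and treated replicates of both genes deviated from their group means in opposite directions.

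**Figure D4:**
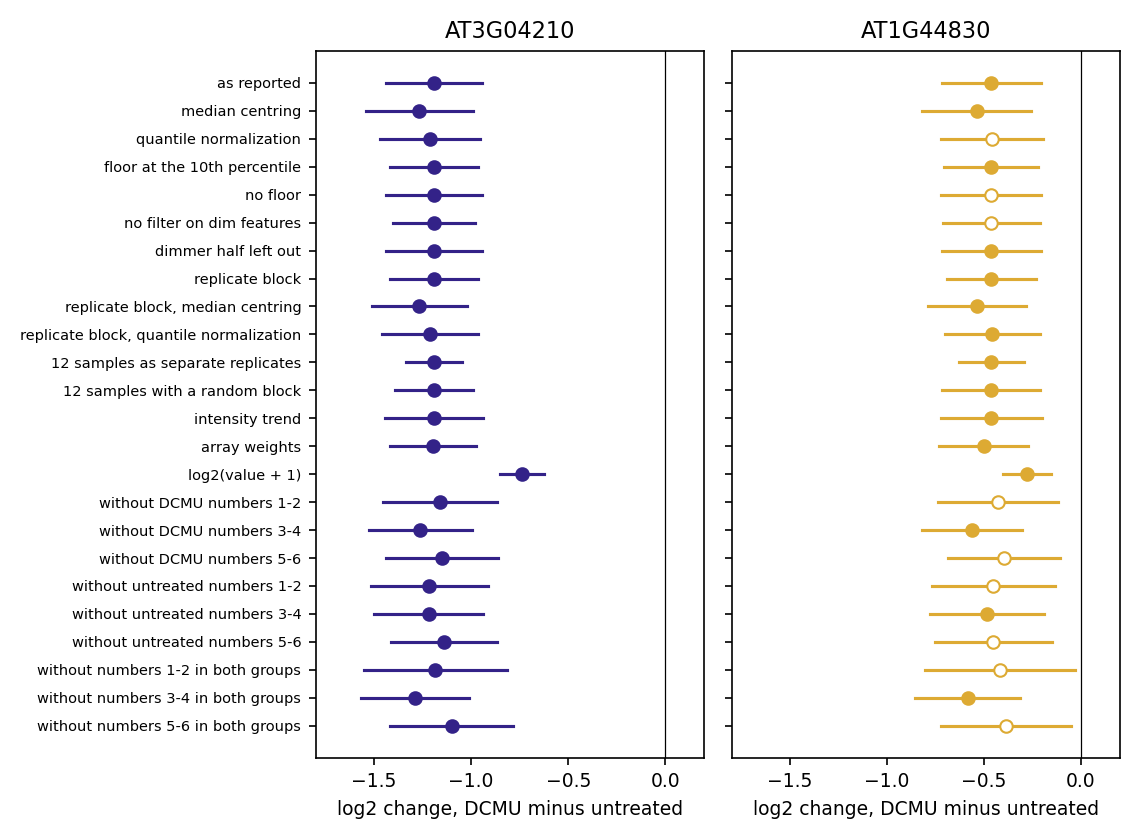
Log2 change with 95% interval of AT3G04210 (left) and AT1G44830 (right) in each fit; filled circles have limma's adjusted p under 0.05 and open circles do not. AT3G04210 is filled throughout, AT1G44830 is open in 3 fits with all replicates, in 4 without 1 replicate and in 2 without 1 number pair, and values on the log2(value + 1) scale are compressed by construction.

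The named genes with the most similar pattern were found by the root-mean-square difference between log2 values centred over the 12 arrays, among 650 other named features, a measure that reads the treatment difference and so returns other genes lower with DCMU. Nearest to AT3G04210 were AT3G50130 (difference 0.15), AT5G11550 (0.16) and AT2G34420 (0.20; LHB1B2, also LHCB1.5, part of the light-harvesting antenna), against a median of 0.68. These fell 1.92-fold, 2.11-fold and 2.22-fold. None of the 3 shared the order of the pairs. In numbers 1-2, 3-4 and 5-6 the changes were -1.04, -0.82 and -0.96 for AT3G50130, -1.07, -1.21 and -0.96 for AT5G11550, and -1.07, -1.17 and -1.22 for AT2G34420. Nearest to AT1G44830 were AT1G21500 (0.13), AT1G09200 (0.14; a histone H3 gene of a multigene family) and AT3G18870 (0.14; of the mTERF family of organelle proteins), against a median of 0.36. AT3G18870 fell 1.41-fold (limma, adjusted p = 0.0430), and AT1G09200 had a log2 change of -0.40 and did not pass (limma, adjusted p = 0.0979). For these 3 genes, too, the change was smallest in numbers 3-4 and largest in numbers 5-6. They were picked for likeness over the same 12 arrays, so this follows in part from the choice. Of all features, 9.09% had that order. AT1G44830 ranked 12 of 650 among the features nearest to AT3G04210, but AT3G04210 ranked 386 of 650 among those nearest to AT1G44830, at a difference of 0.38 that was above the median.

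**Figure D5:**
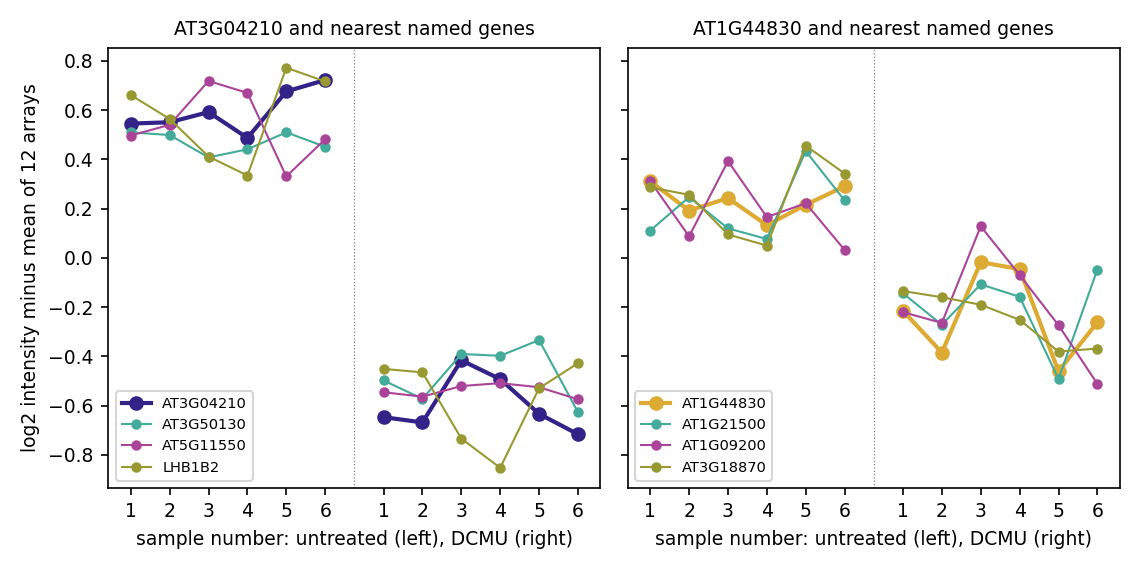
Log2 intensity minus its mean over the 12 arrays, by sample number, for AT3G04210 (left panel) and AT1G44830 (right panel) and the 3 named genes nearest to each. In the left panel all 4 profiles drop from untreated to treated arrays, with log2 changes from -1.19 to -0.94, and in the right panel from -0.50 to -0.40.

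The pathways around the 2 families could hardly be read on this array. Of 94 loci listed for TIR and NBS-LRR immunity signalling, salicylic acid, ethylene and ERF factors, and reactive oxygen and high light, 0 had a probe of their own, so neither the immune regulators EDS1 and PAD4 nor the ethylene regulators EIN2 and EIN3 were measured under their own name. Only 2 loci, both in the reactive oxygen and high light list, were on probes annotated to several genes. These are probes 2359 and 4595, whose log2 changes lay between -0.04 and 0.02, and neither passed the test. A search of symbols and synonyms for TIR, NBS, AP2 or ERF terms found no named gene. That search also misses AT3G04210 and AT1G44830, which the gene table lists by locus alone. Other members of both families may therefore stand among the named features under their locus. AT1G72890, possibly a TIR-NBS gene, and AT1G01250, possibly an ERF gene, are such loci, picked after the values were known. Their log2 changes were 0.26 and 0.30, above 0 as was the median of all features (0.10). Neither locus passed the test (limma, adjusted p = 0.305 and 0.115). Searches by term for defence and stress genes and for other DNA-binding factors were incomplete in the same way. The second found AT4G03090 (NDX, a nodulin homeobox protein), with a log2 change of 0.09 (limma, adjusted p = 0.646), and, by its letters alone, the Calvin cycle enzyme SBPASE.

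Some transcription factors and stress-related genes that the terms missed do have a symbol and a probe of their own, and the following were picked after the values were known. The factors TCP15, of the TCP family, and LAS, of the GRAS family, had log2 changes of -0.13 and -0.05. Genes with the AGAMOUS-like symbols AGL26, AGL54 and AGL103 were at 0.08, 0.15 and 0.36. Whether each of them encodes a factor was taken from the symbol alone. The drought-induced gene DI21 was at 0.07 and SRX, a sulfiredoxin that repairs oxidised peroxiredoxins, at 0.11. XERICO, a RING protein of drought tolerance, was at 0.37 (limma, adjusted p = 0.125), and CCS, the copper chaperone of superoxide dismutase, at 0.39 (limma, adjusted p = 0.323). None of these 9 genes passed the test, which called 63 of 3278 features higher and 104 lower. The choice left out stress-related genes with a symbol that were lower. Examples are ATSIK, a stress-induced kinase, at -0.26 (limma, adjusted p = 0.195) and AILP1 at -0.18 (limma, adjusted p = 0.484). The genes picked therefore do not show in which direction stress genes moved. With the number pair as a block AGL103, XERICO and CCS passed, each higher with DCMU (limma, adjusted p = 0.0383, 0.0366 and 0.0157). The block called 351 of 3278 features higher and 215 lower. With the block after median centring, which called 175 higher and 327 lower, CCS kept its call (limma, adjusted p = 0.0409). AGL103 and XERICO did not (adjusted p = 0.0713 and 0.0672), and the change of DI21 turned to -0.00945. CCS was dim, at a mean level of 0.19 without and 0.25 with DCMU, in the dimmest eighth of features (0.067 to 0.305). None of the 10 nearest protein-coding neighbours of either gene on its chromosome, 5 on each side, had a probe of its own. The word stress is taken from the families of the 2 genes and not from these data.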

How the data were processed

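The deposited values are linear spot intensities of 3439 probes, 1 per sample. They look scaled by the authors, since array totals ran from 3643 to 3768, and 11 values stood at a ceiling of 100. How they were scaled, background-corrected and labelled is not stated in the labels. No detection flag was used, and precision is limited by the number of arrays. A single gene is annotated for 692 probes, several for 870 and none for 1877, and names were taken from the first kind through the RefSeq TAIR10.1 gene table, whose positions were used only for the order of genes along a chromosome, because the array's build is not named.

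Low values were raised to a floor of 0.0669, below which 1% of positive values lay, the 160 probes at or under it on every array were left out, and log2 values of spots of 1 gene were averaged. Centred on their group, samples of numbers 1-2, 3-4 and 5-6 had correlations of 0.36 to 0.67, and other numbers of -0.58 to -0.11, in part because of the centring. These numbers were averaged to 3 replicates per group. Replicates of the same numbers correlated at 0.38 to 0.44 across groups and others at -0.38 to 0.01, so the numbers were taken to pair them. The labels do not say whether samples came from separate plantings, and p-values then measure a spread that may be technical. The test was limma 3.58.1 under R 4.3.3, two-sided, on all 3278 features with eBayes, Benjamini-Hochberg adjustment and a threshold of 0.05, without the pair as a block. The test was also run on simulated data, with normal errors drawn separately for each replicate. Those data lack the correlation between replicates of the same numbers, so they cannot show how the test behaves with it. The planned search for promoter motifs was not run, and no sequence was used here. The members and lists were chosen with earlier results of these data known. The genes named were the 2 members, measured list and family members, the 3 nearest in pattern to each and the named features on either side of the threshold. Some others were picked after the values were known, as stated where they appear.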

Additional observations from a re-analysis of the deposited data

How the results depend on the processing

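AT3G04210 kept its direction and its call in all 36 alternatives tried, with a log2 change between -1.29 and -1.10 except on the log2(value + 1) scale (-0.74), which is compressed by construction. The 36 include the reported fit read at a false discovery rate of 0.1, which neither gene could fail. AT1G44830 kept its direction in all 36 and lost its call in 15. With all replicates it was lost after quantile normalization (-0.46; limma, adjusted p = 0.0532), without a floor (-0.46; adjusted p = 0.0508) and without the filter on dim features (-0.46; adjusted p = 0.0843), where 3438 features were tested. Without 1 replicate, 1 array or 1 number pair it ranged from -0.58 to -0.39. Its call was also lost without 1 of 4 replicates (numbers 1-2 or 5-6 of either group), without 1 of 6 single arrays (untreated 1, 3 or 6, treated 2, 4 or 5), with adjusted p up to 0.0636, and without numbers 1-2 or 5-6 in both groups (adjusted p = 0.419 and 0.331); leaving out a pair in both groups was chosen after seeing the data. The replicate block changed the call of neither gene. With it AT1G44830 also passed after median centring and quantile normalization (limma, adjusted p = 0.0122 and 0.0247). No fit that left out a replicate, array or number pair used the block, so those losses are for the test without it. The difference between their changes was -0.46 on the log2(value + 1) scale.

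Of 3278 features 167 passed, 104 of them lower. The counts became 102 and 57 without the filter on dim features, 566 and 215 with the replicate block, 502 and 327 with the block after median centring, 465 and 280 with it after quantile normalization, and 1089 and 322 with 12 samples as separate replicates. A random block gave 302, array weights 359 and a false discovery rate of 0.1 gave 310. Leaving out 1 replicate, array or number pair gave 30 to 285, with 28 to 123 lower, and 30 came without numbers 1-2 in both groups. Rises were 37.7% of calls as reported, 27.2% after median centring, 62.0% with the block and 34.9% with the block after median centring. The causes were not tested. Without background values, how far either probe stood above its background is unknown.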
